A study of Mus musculus with 24 samples.

Results

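The 9 genes described here, Wdfy1, Cyfip2, Pttg1, Pam, Bend6, Spink4, Fbxo44, Trnp1 and Meig1, separated the 2 mouse lines of a study of doxorubicin in the heart. They are 9 of the 34844 gene names on the array, and every probe carrying one of these names was used, which gave 16 of 55681 probes. The genes were chosen by their level difference between the lines on these same arrays, so those levels are given as a description, with no test. The 2 treatments within each line were not used for the choice and were tested.

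RNA of isolated cardiomyocytes, from a wild-type line and from a line in which Top2b is deleted in cardiomyocytes, was hybridised to 24 Agilent 1-colour arrays, 3 for each of 8 groups. Each line received either PBS or doxorubicin at 25 mg/kg by intraperitoneal injection, and live cells were isolated on a Langendorff apparatus 16 h or 72 h later. All mice are labelled as male, 6 weeks old and of the 129SvEv/C57BL/6 background, a label that both lines carry. The driver of the deletion, the cells in which it is active and the relation of the animals (littermates or separate colonies) are not given in the sources used here. The labels also do not say whether 2 arrays can share an animal, and the p-values therefore cover the spread between these samples, which may be partly technical. Levels are log2 of the processed signal with the 75th percentile of each array set to 0, and a line difference is the Top2b-deleted mean minus the wild-type mean of 6 and 6 arrays at a time, with the SE of the limma fit.

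Several arrays went against a label. Genotype was taken from the titles, and at 16 h the genotype characteristic contradicted the title for replicate 3 of both PBS groups and replicate 1 of both doxorubicin groups. On these 4 arrays, taken as PBS and doxorubicin of wild type and then of the Top2b-deleted line, 9, 8, 8 and 9 of the 9 genes lay closer to the mean of the line in the title, a match that the choice of the genes favours. Without these 4 arrays the line differences of the 9 genes at 16 h were 1.40 (Trnp1) to 5.25 (Spink4) in size. Top2b itself had levels of 4.03 to 4.39 on wild-type and 2.54 to 3.34 on Top2b-deleted arrays at 16 h, and of 3.25 to 3.65 against 2.13 to 3.07 at 72 h, so its lines did not overlap. The Y-linked Ddx3y was well above background on 7 of the 24 arrays, 5 of wild type and 2 of the Top2b-deleted line, although all are labelled male. At 16 h these were 3 of 3 wild-type PBS, 1 of 3 wild-type doxorubicin, 0 of 3 Top2b-deleted PBS and 1 of 3 Top2b-deleted doxorubicin arrays. Probe A_55_P2030883, named Esr1 in the files, was well above background on all 12 Top2b-deleted arrays and on 6 wild-type arrays, and it exceeded 5 on 3 wild-type arrays at 72 h. On each of the 6 wild-type arrays at 72 h, 8 or 9 of the 9 genes lay closer to the wild-type mean, the exception being Meig1 on replicates 2 and 3 of doxorubicin. The choice of the genes favours this match too, so it is no check of the labels. All 9 cardiomyocyte markers listed, such as Myh6 and Tnnt2, were well above background in both lines.

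Topoisomerase II beta, the product of Top2b, passes 1 DNA duplex through a transient break in another, and doxorubicin traps the enzyme on the broken DNA. The 9 genes are not known as parts of 1 pathway. Wdfy1 encodes an endosomal adaptor with a FYVE domain that acts in toll-like receptor signalling, and Cyfip2 a subunit of the WAVE complex that controls actin branching below Rac. Pttg1 encodes securin, which holds separase inactive until sister chromatids part, and Pam encodes the enzyme that amidates peptide hormones and is abundant in atrial granules. Bend6 encodes a BEN domain corepressor of Notch signalling, Spink4 a secreted Kazal-type inhibitor known from gut goblet cells, and Fbxo44 the substrate-binding subunit of an SCF ubiquitin ligase. Trnp1 encodes a nuclear protein known from neural progenitors, and Meig1 a protein needed for sperm development.

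The probes are 60 bases long. Those of Wdfy1 are shown because its upstream and downstream probes gave different results, and those of Fbxo44 because 1 array departed from its line on both. The first 30 bases of each are printed 5′ to 3′, and capitals mark the bases that 2 overlapping probes of Wdfy1 have in common.
Wdfy1 A_55_P2070686: acccctcctcccattgttagCTGCTTTGAA
Wdfy1 A_52_P511821: CTGCTTTGAAGACAGAATGACTCCTGTGGA
Wdfy1 A_66_P118236: aaattatatttaaagaagaattagagggag
Wdfy1 A_55_P2092730: gagacgctgcaaatttttgttctttctact
Fbxo44 A_55_P2085333: aagaccagcgaaaggaattccccaatgacc
Fbxo44 A_55_P2054350: aggatggaccagggttttgagtggaaggac

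Of the 9 genes, 5 were higher in the Top2b-deleted line (Wdfy1, Pam, Bend6, Spink4 and Trnp1) and 4 were lower (Cyfip2, Pttg1, Fbxo44 and Meig1). At 16 h the 6 and 6 arrays did not overlap for 9 of 9 genes, where 11.5% of all genes tested were separated in this way (6.94% higher, 4.58% lower). At 72 h they did not overlap for 9 of 9 either, where 5.86% of all genes were (3.27% higher, 2.59% lower). At 72 h it was 8 of 9, without Meig1, with median scaling, quantile normalization, normexp background or the mean of the kept probes, and 8 of 9, without Wdfy1, when any 1 Top2b-deleted array was left out. The rule used this contrast, so nothing is read from these shares. The median size of the line difference was 3.76 at 16 h and 3.12 at 72 h, beside 0.26 and 0.21 over all genes kept. With both times joined, 356 of 18289 genes (1.95%) separated all 12 and 12 arrays, 207 higher and 149 lower in the Top2b-deleted line. By size the members ranged from rank 8 (Spink4) to rank 254 (Trnp1) of the 18289 genes, and Top2b stood at rank 953. In bulk RNA such as this, fewer cells of a type and less RNA per cell cannot be told apart.

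**Figure D1:**
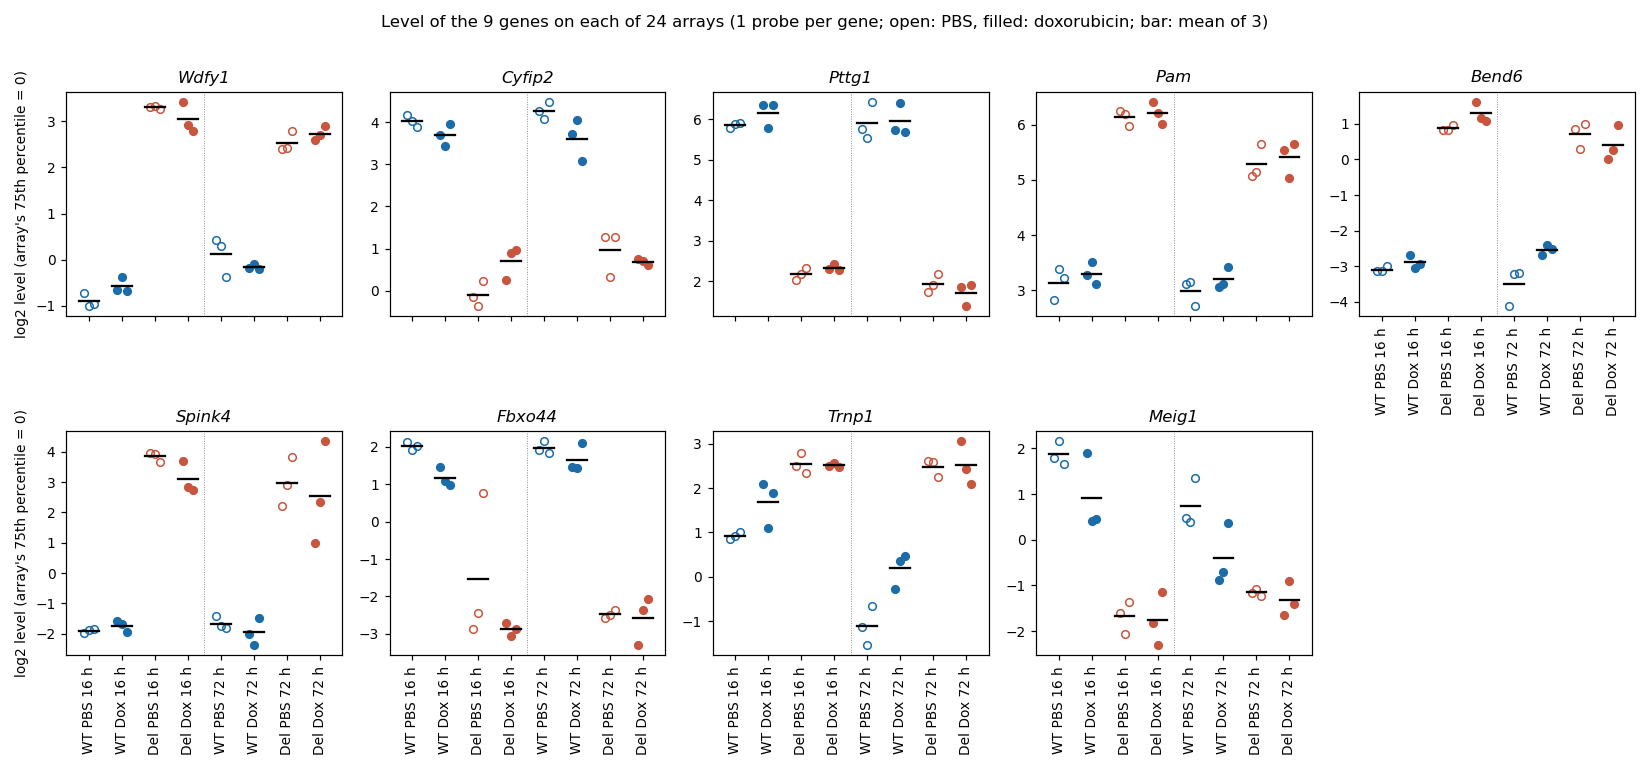
Level of each of the 9 genes on the 24 arrays, as log2 with the array's 75th percentile at 0 and 1 probe per gene, by line, treatment and time; open points are PBS, filled points doxorubicin, bars the mean of 3 arrays, and each panel has its own vertical scale. Within a gene the wild-type and Top2b-deleted points stand apart at both times, nearest for Trnp1 and Fbxo44 at 16 h and Meig1 at 72 h.

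Spink4, a secreted protease inhibitor, had the largest line difference of the 9 at both times with the scaling used. With slide as a block at 16 h that of Fbxo44 was larger in size (-6.08 beside 5.50), and with normexp background at 72 h that of Pttg1 (-3.95 beside 3.63). The blocked value of Fbxo44 rests on 1 array, Top2b-deleted PBS replicate 3. At 16 h the lowest, median and highest levels of Spink4 were -1.99, -1.87 and -1.58 on wild-type arrays and 2.75, 3.68 and 3.97 on Top2b-deleted arrays, a difference of 5.30 ± 0.16 (SE, n = 6 and 6). By 72 h the levels were -2.38, -1.79 and -1.43 against 0.98, 2.63 and 4.36, a difference of 4.58 ± 0.50. The wild-type arrays lay close together, and the wide spread at 72 h was that of the Top2b-deleted arrays. Its 1 probe carries coordinates chr4:40876206-40878330 (mm9, plus strand), which span 2125 bases for a 60-base probe.

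Bend6, the Notch corepressor, was higher in the Top2b-deleted line by 4.07 ± 0.11 at 16 h and 3.58 ± 0.22 at 72 h. Its levels at 16 h were -3.14, -3.02 and -2.69 (lowest, median, highest) on wild-type arrays and 0.82, 1.02 and 1.61 on Top2b-deleted arrays. The levels at 72 h were -4.11, -2.93 and -2.41 against 0.00, 0.57 and 0.98. The lines were far apart at both times, and the probe was well above background on 4 of the 6 wild-type arrays at 72 h, so the low side there is partly at the background. The probe lies at chr1:33908945-33909004 (mm9, minus strand).

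Pam, the peptide-amidating enzyme, was above the array's 75th percentile in both lines. Its levels at 16 h were 2.82, 3.25 and 3.51 in wild type and 5.99, 6.21 and 6.42 in the Top2b-deleted line, a difference of 2.96 ± 0.13. At 72 h they were 2.71, 3.11 and 3.42 against 5.04, 5.35 and 5.66, a difference of 2.26 ± 0.16. No array of 1 line came within 1.62 of the other line at either time. Its probe, at chr1:99718052-99718111 (mm9, minus strand), has 80% G and T, a higher share than in 99.85% of all probes on the array. The part of that composition in the difference was not tested.

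Trnp1, the nuclear protein of neural progenitors, had the smallest difference of the 9 at 16 h. Its levels were 0.85, 1.06 and 2.08 in wild type and 2.33, 2.51 and 2.80 in the Top2b-deleted line at 16 h, a difference of 1.22 ± 0.16. At 72 h they were -1.54, -0.46 and 0.47 against 2.09, 2.51 and 3.06, a difference of 2.97 ± 0.22. The Top2b-deleted arrays were alike at both times, while the wild-type arrays were lower at 72 h than at 16 h, a difference that was not tested. The second probe, 447 bases away on chromosome 4, gave 0.96 at 16 h, with overlapping lines, and 2.62 at 72 h.

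Wdfy1, the endosomal adaptor, was higher in the Top2b-deleted line on 2 probes and not on the other 2. Probes A_66_P118236 (chr1:79699969-79700028) and A_55_P2092730 (chr1:79698903-79698962), both mm9 and on the minus strand, lie 1007 bases apart and begin at bases 3359 and 4425 of transcript NM_001111279 as the files give it. Probe A_55_P2092730 had levels of -1.003, -0.70 and -0.38 on wild-type and 2.79, 3.29 and 3.42 on Top2b-deleted arrays at 16 h, a difference of 3.91 ± 0.12, and the difference at 72 h was 2.66 ± 0.15. Probe A_66_P118236 was well above background on 0 of 6 wild-type and on 6 of 6 Top2b-deleted arrays at 16 h, so it gives only a bound, at least 7.09-fold higher in the Top2b-deleted line. Such a bound sets the mean of the bright arrays against the detection limit of each dim array, taken as its dimmest probe still well above background, or against the probe's own signal where that is higher. At 72 h it was well above background on 1 of 6 wild-type arrays and differed by 3.63 ± 0.32.

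The other probes of Wdfy1, A_55_P2070686 and A_52_P511821, overlap by 40 bases at chr1:79723042-79723121, at least 23014 bases from the pair that differed and nearer the 5′ end of the gene. They are assigned to transcript NM_027057 and begin at its bases 573 and 593. Probe A_55_P2070686 had levels of 0.53, 0.99 and 1.51 on wild-type and 0.39, 0.74 and 0.95 on Top2b-deleted arrays at 16 h. Its line difference was -0.29 ± 0.17 at 16 h and -0.17 ± 0.20 at 72 h, and that of A_52_P511821 was -0.23 ± 0.35 and -0.33 ± 0.19. Both were well above background on all 24 arrays, and their lines overlapped at both times. Wdfy1 thus separated the lines on its downstream probes, while on its upstream ones the lines overlapped. The probes also differ in composition, with 71.7% G and T in A_55_P2092730, 53.3% in A_66_P118236 and 48.3% in each upstream probe. The share in A_55_P2092730 is higher than in 99.2% of all probes on the array, and the part of composition in the difference was not tested. When any 1 Top2b-deleted array was left out at 72 h, the upstream A_55_P2070686 became the brightest probe under the rule for a gene's value, and the difference of Wdfy1 was then -0.25 to -0.05.

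**Figure D2:**
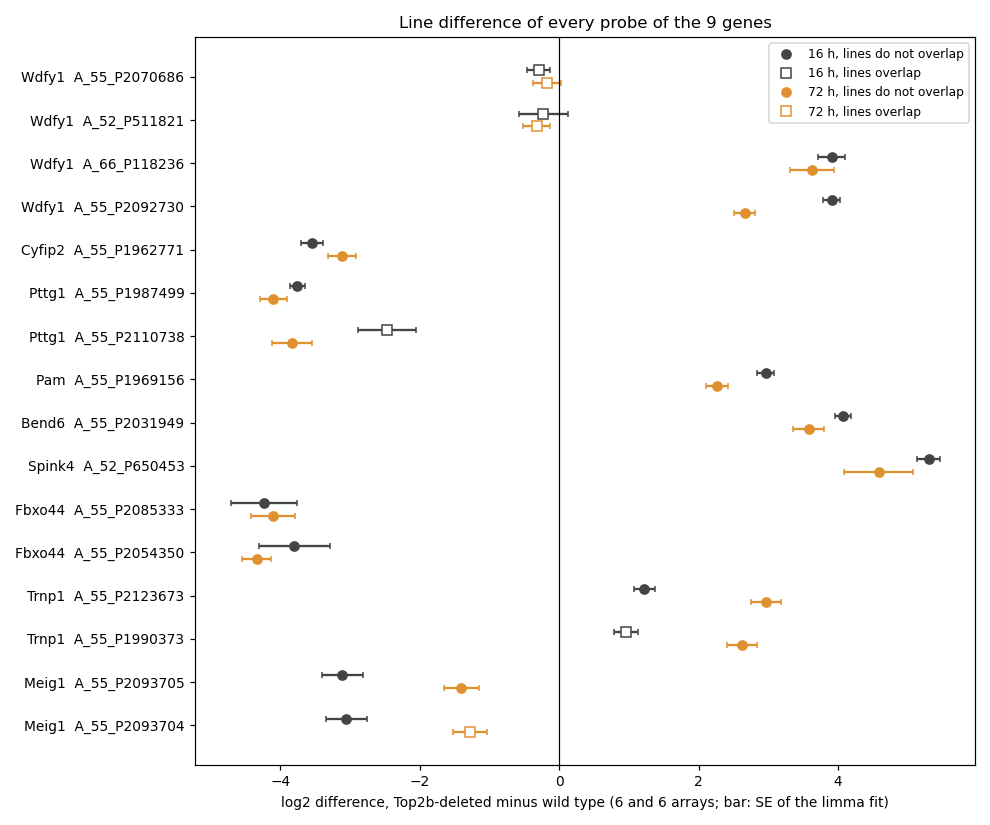
Line difference (Top2b-deleted minus wild type, log2) of all 16 probes at 16 h and 72 h, with the SE of the limma fit as bars; filled circles are probes whose 6 and 6 arrays do not overlap and open squares those that overlap. The 2 upstream probes of Wdfy1 lie near 0, from -0.33 to -0.17, and its 2 downstream probes between 2.66 and 3.91.

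Pttg1, the securin gene, was lower in the Top2b-deleted line, with a difference of -3.76 ± 0.11 at 16 h and -4.10 ± 0.20 at 72 h on probe A_55_P1987499 (chr11:43233801-43233860, mm9, minus strand). Its levels were 5.78, 5.89 and 6.36 in wild type and 2.02, 2.28 and 2.43 in the Top2b-deleted line at 16 h, and 5.53, 5.75 and 6.43 against 1.38, 1.87 and 2.18 at 72 h. Every array of 1 line was at least 3.35 from every array of the other at both times. The second probe, A_55_P2110738 (chr11:43234562-43234621), was dim. At 72 h it was well above background on all 6 wild-type arrays and on 0 of 6 Top2b-deleted arrays, which bounds the difference at no less than 4.07-fold. At 16 h it was well above background on 5 and 1 arrays, and its lines overlapped, with a difference of -2.47 ± 0.41.

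Cyfip2, the WAVE complex subunit, lies 2.77 Mb from Pttg1 on chromosome 11 (chr11:46007360-46007419, mm9, minus strand). Its levels at 16 h were 3.44, 3.92 and 4.16 in wild type and -0.36, 0.24 and 0.98 in the Top2b-deleted line, a difference of -3.55 ± 0.16. At the later time they were 3.07, 4.06 and 4.48 against 0.33, 0.73 and 1.27, a difference of -3.12 ± 0.21. The lines were apart by at least 1.80 at both times.

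Meig1, the sperm development gene, had a larger line difference at 16 h than at 72 h on both probes. Its levels on probe A_55_P2093705 (chr2:3326387-3326446, mm9, minus strand) were 0.40, 1.73 and 2.16 in wild type and -2.31, -1.72 and -1.13 in the Top2b-deleted line at 16 h, a difference of -3.11 ± 0.29. At 72 h they were -0.87, 0.38 and 1.36 against -1.65, -1.19 and -0.90, a difference of -1.41 ± 0.25, and the lines were apart by only 0.03. The second probe, 9 bases away, gave -3.05 and -1.28, with overlapping lines at 72 h.

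Fbxo44, the F-box protein, was lower in the Top2b-deleted line on both probes, with 1 array that did not follow. Probe A_55_P2054350 (chr4:147527012-147527071, mm9, minus strand) had levels of 0.99, 1.69 and 2.14 in wild type at 16 h and of -2.87, -2.46 and 0.76 on the 3 Top2b-deleted PBS arrays and -2.71, -3.05 and -2.86 on the 3 Top2b-deleted doxorubicin arrays, each in the order of their replicates. The difference was -3.80 ± 0.51 at 16 h and -4.34 ± 0.21 at 72 h. Top2b-deleted PBS replicate 3 was also high on probe A_55_P2085333, 3619 bases away, at -1.07 beside -6.03 to -4.21 on the other 5 arrays of its line, where the probe was not well above background. With wild type at 0 and the other Top2b-deleted arrays at 1, this array stood at 0.19 on A_55_P2054350. It is 1 of the 4 arrays whose genotype labels conflict, and its levels of the other 8 genes lay closer to the Top2b-deleted line. At 72 h the 6 Top2b-deleted arrays lay between -3.30 and -2.07 on A_55_P2054350, with no such array.

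This array was then compared with both lines over all genes, a step chosen after its Fbxo44 value was seen. Of 251 genes that separated the other 5 Top2b-deleted arrays from the 6 wild-type arrays at 16 h by at least 2 on the log2 scale, 14 were closer to wild type on it. Of these 14, 8 lay on chromosome 4 between 140.8 and 147.5 Mb (mm9), among them Arhgef19, Gm13212, Zfp600, Gm13152, Gm13154, Zfp933 and Fbxo44. The stretch is bounded by the outermost of these 8 genes themselves, and so was set by the outcome. It held 10 of the 251 genes, of which 8 were closer to wild type, beside 6 of the 241 outside it. The 2 that were not are Nppa and Nppb, the natriuretic peptide genes, which stood at 0.99 and 1.18 on the same scale, at the level of the Top2b-deleted line. It was also the only Top2b-deleted PBS array of 16 h on slide 2. Without it the line difference of Fbxo44 at 16 h was -4.37. No cause was tested.

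**Figure D3:**
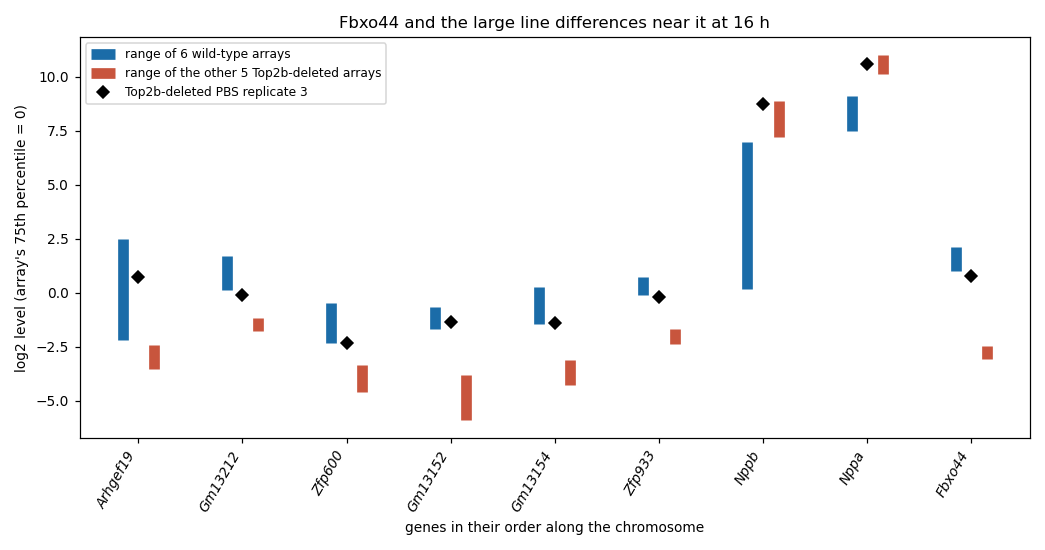
Levels at 16 h (log2, the array's 75th percentile at 0) of 9 genes within the stretch of chromosome 4 around Fbxo44 whose line difference was at least 2; bars are the ranges of the 6 wild-type and the other 5 Top2b-deleted arrays, diamonds are Top2b-deleted PBS replicate 3, and genes are in chromosome order without spacing to scale. The diamonds lie closer to the wild-type mean for 7 genes and with the Top2b-deleted arrays for Nppb and Nppa.

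The 9 genes lie on 4 chromosomes, with 3 on chromosome 1 (Wdfy1, Pam and Bend6), 3 on chromosome 4 (Spink4, Fbxo44 and Trnp1), 2 on chromosome 11 (Cyfip2 and Pttg1) and 1 on chromosome 2 (Meig1). None lies on chromosome 14, which holds Top2b. Within 1 Mb of a member 195 other genes were kept at both times, and 10 of them (5.13%) separated all 12 and 12 arrays, beside 1.95% of all genes. Their median size of line difference was 0.27, beside 0.20 over all genes. These windows were placed around genes chosen for their difference, so the shares are descriptions. Around Top2b, 0 of 7 genes within 1 Mb, 0 of 66 within 5 Mb and 2 of 124 within 10 Mb separated the lines.

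The neighbours were unevenly spread over the members. Around Bend6, 4 of 20 genes within 1 Mb separated the lines. Among them Prim2, the gene of a DNA primase subunit 398 kb away, was lower in the Top2b-deleted line, opposite in sign to Bend6. It was well above background on 0 of 6 Top2b-deleted arrays at either time, which bounds the difference at no less than 3.33-fold at 16 h and 2.92-fold at 72 h. D1Ertd448e, 595 kb away, differed by -2.27 and -2.07. Around Fbxo44, 4 of 41 genes did so, among them Nppa, the atrial natriuretic peptide gene 151 kb away, at 2.59 and 3.18, and Zfp933, a zinc finger gene 330 kb away, at -2.18 and -2.70. That count includes Top2b-deleted PBS replicate 3. Gm13152 and Gm13154, 640 and 568 kb away, differed by -3.49 and -2.67 in the mean of both times. At 16 h these 2 genes separated the lines only without that array. Trnp1 had 1 of 53 (Tmem222, -0.51 and -0.42) and Meig1 1 of 9 (Nmt2, an N-myristoyltransferase 82.9 kb away, -0.82 and -1.08). No gene within 1 Mb separated the lines for Wdfy1 (of 7), Cyfip2 (of 12), Pttg1 (of 9), Pam (of 6) or Spink4 (of 38). A neighbour whose arrays overlapped could still differ widely in the mean of both times. Fam46b, 3.29 kb from Trnp1, differed by 2.25, beside 2.10 for Trnp1, and BC053393, 395 kb from Cyfip2, by -2.51. Spink4, the member with the largest difference, also had 0 of 91 within 5 Mb, and Wdfy1 0 of 55.

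**Figure D4:**
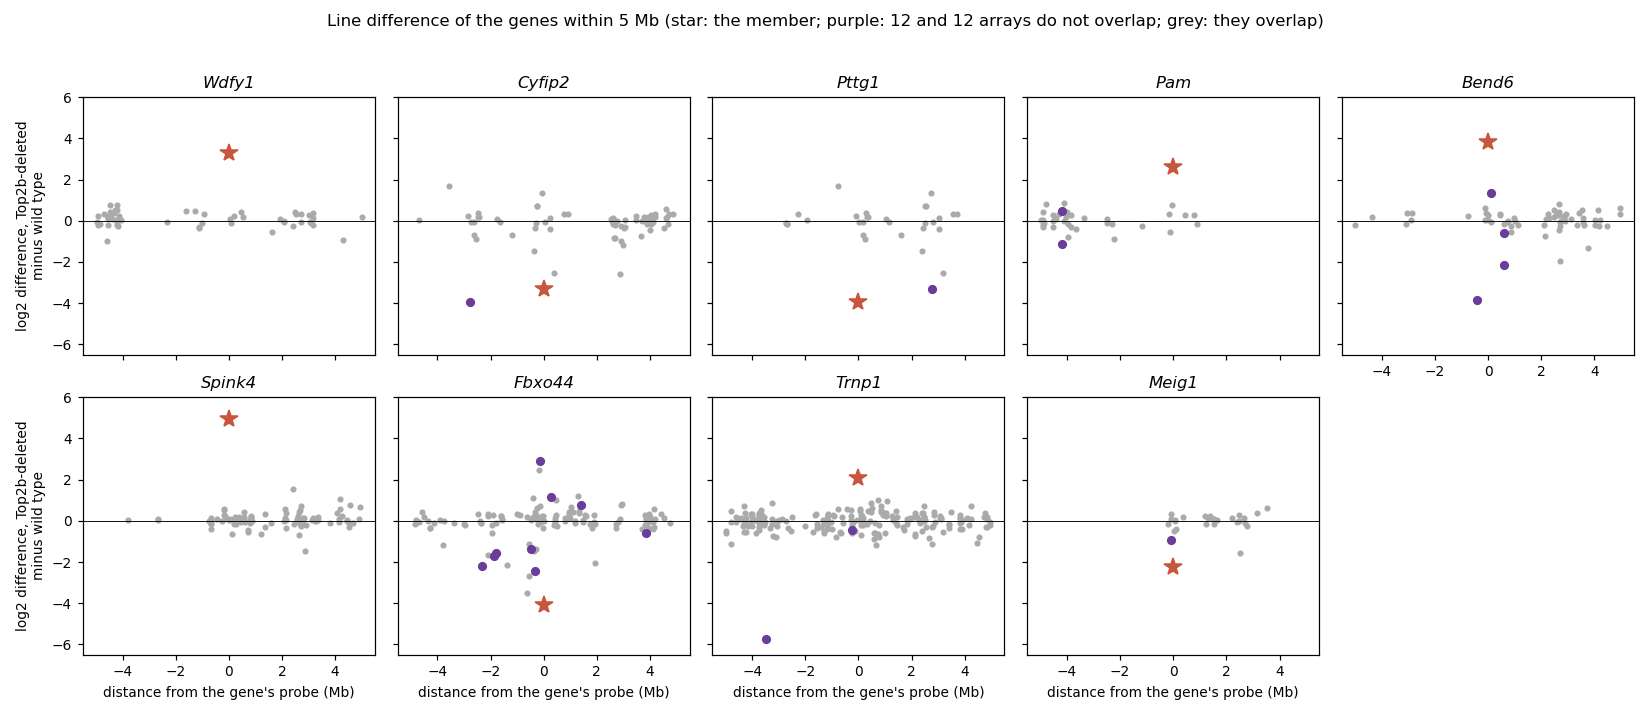
Line difference (log2, mean of both times) of the genes within 5 Mb of each member against their distance from its probe in Mb; the star is the member, purple points are genes whose 12 and 12 arrays do not overlap and grey points genes that overlap. Purple points lie within 1 Mb of Bend6, Fbxo44, Trnp1 and Meig1, and within 5 Mb none lies near Wdfy1 or Spink4.

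Likeness over the 24 arrays was measured as Pearson's r on levels centred within each time, and names are taken from the 2 most like genes of each member. These points share the 2 lines, so any pair of genes that separates them has a high r. Pttg1 was most like probe A_55_P2097578, which carries no gene name (r = 0.98), and Prim2 (r = 0.98), and Wdfy1 ran opposite to ENSMUST00000161588 (r = -0.98) and Hsd17b7 (r = -0.98). ENSMUST00000161588 was also most like Pam (r = -0.99), and Ocel1 was among the 2 most like Pam (r = 0.98) and Bend6 (r = 0.98). Cyfip2 was like 0610040J01Rik (r = 0.97). 2610507I01Rik was among the 2 for Bend6 (r = -0.98) and Spink4 (r = -0.97), and the nameless probe was the other for Spink4 (r = -0.98). Fbxo44 was most like Zfp933 (r = 0.97), on its own chromosome and also closer to wild type on Top2b-deleted PBS replicate 3. Trnp1 was most like Plagl1 and Zfp868 (both r = 0.93), which did not separate all arrays, and Meig1 was most like Lars2 and Adig (both r = 0.95).

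Doxorubicin moved 1 of the 9 genes by the test, in wild type at 16 h; the comparison asked whether genes that differ between the lines also respond to the drug. In wild-type cells at 16 h, 1 of 9 rose and 0 fell (limma, Benjamini-Hochberg adjusted over 18743 genes, threshold 0.05), while 27.8% of all genes passed, 13.7% higher and 14.1% lower. In Top2b-deleted cells at 16 h, 0 of 9 passed, beside 0% of all genes; at an unadjusted p under 0.05, 3 members and 792 genes passed. At 72 h, 0 of 9 passed in wild type, beside 2.7% of all genes (0.946% higher, 1.75% lower), and 0 of 9 in the Top2b-deleted line, beside 0%; at an unadjusted p under 0.05, 4 members and 4782 genes passed in wild type, and 0 members and 428 genes in the Top2b-deleted line. With a replicate block Trnp1, Bend6 and Meig1 passed in wild type at 72 h, and the count over all genes in that fit is given at the end. The median response of the 9 was 0.17 in wild type at 16 h, beside -0.03 over all genes.

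Trnp1 was the gene that rose. In wild-type cells at 16 h it had levels of 0.85, 0.92 and 1.001 with PBS and 2.08, 1.11 and 1.89 with doxorubicin, a response of 0.77 ± 0.22 (SE, n = 3 and 3, limma adjusted p = 0.0261). All 3 doxorubicin arrays were above all 3 PBS arrays, and the second probe gave 0.86 ± 0.24 (limma adjusted p = 0.0229, in a fit of all kept probes). At 72 h the wild-type levels were -1.14, -1.54 and -0.66 with PBS and -0.27, 0.36 and 0.47 with doxorubicin, again without overlap, a response of 1.30 ± 0.30 that missed the threshold (limma adjusted p = 0.0509). This response passed with a replicate block (limma adjusted p = 0.0343). Within the slides of 72 h it was 1.39 on slide 1 and 1.13 on slide 2, and all wild-type arrays of 16 h lay on 1 slide. In the Top2b-deleted line the response was -0.02 ± 0.22 at 16 h, and the difference between the responses of the lines was -0.79 ± 0.31 at 16 h (limma adjusted p = 0.126) and -1.25 ± 0.43 at 72 h (limma adjusted p = 0.689). The 16 h response passed the threshold in 7 of 12 fits that left out 1 array. It was lost without wild-type PBS replicate 1, 2 or 3 or wild-type doxorubicin replicate 1 or 3, with adjusted p of up to 0.0753. It was also lost without the 4 arrays of conflicting genotype labels (0.62, limma adjusted p = 0.15), with only the 2 groups compared (limma adjusted p = 0.119) and with no filter on dim probes (limma adjusted p = 0.0596). Ddx3y was well above background on 3 of 3 wild-type PBS and 1 of 3 wild-type doxorubicin arrays at 16 h, and with it as a covariate the response was 0.96 (limma adjusted p = 0.0234).

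**Figure D5:**
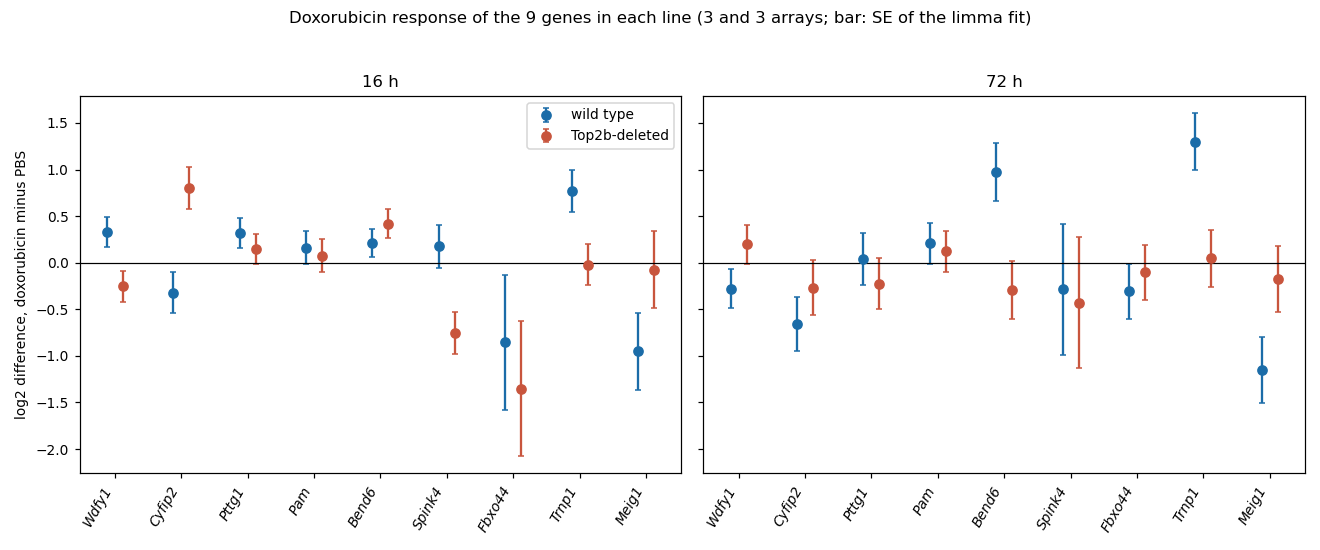
Doxorubicin response (log2, doxorubicin minus PBS, 3 and 3 arrays) of the 9 genes in wild-type and Top2b-deleted cells at 16 h and 72 h, with the SE of the limma fit as bars. Trnp1 in wild type stands at 0.77 and 1.30, and Cyfip2 at 16 h at -0.32 in wild type and 0.80 in the Top2b-deleted line.

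The responses of Cyfip2 at 16 h differed between the 2 lines by the test, but not in all fits. Its wild-type levels were 4.16, 4.02 and 3.87 with PBS and 3.69, 3.44 and 3.96 with doxorubicin, a response of -0.32 ± 0.22. Its Top2b-deleted levels were -0.15, -0.36 and 0.22 with PBS and 0.25, 0.90 and 0.98 with doxorubicin, a response of 0.80 ± 0.22. The groups overlapped in wild type and not in the Top2b-deleted line. The difference of the responses was 1.12 ± 0.32 (limma adjusted p = 0.0462), and this passed for 1 of 9 members and 11.4% of all genes at 16 h (6.16% higher, 5.27% lower). At 72 h 0 of 9 and 0% passed, with 2 members and 1389 genes at an unadjusted p under 0.05. All 3 Top2b-deleted doxorubicin arrays and replicate 3 of PBS were on slide 2 and the other 8 arrays of 16 h on slide 1. With slide as a block the difference was 0.81 (limma adjusted p = 0.296), and within slide 2 the Top2b-deleted response was 0.49. The call held in 3 of 12 fits that left out 1 array, those without replicate 3 of wild-type doxorubicin, replicate 3 of Top2b-deleted PBS or replicate 1 of Top2b-deleted doxorubicin, and was lost without any of the other 9, with adjusted p of up to 0.115.

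Other members had responses that passed in only some of the fits. Meig1 in wild type had 1.79, 2.16 and 1.66 with PBS and 1.90, 0.40 and 0.45 with doxorubicin at 16 h, a response of -0.95 ± 0.41 (limma adjusted p = 0.109). Replicate 1, the array with Y-linked transcripts and a conflicting genotype label, stayed at the PBS level, and without it the response was -1.45 (limma adjusted p = 0.00868). At 72 h the response of Meig1 was -1.15 ± 0.35 (limma adjusted p = 0.0897). Fbxo44 in wild type had 2.14, 1.92 and 2.03 with PBS and 1.46, 1.08 and 0.99 with doxorubicin at 16 h, with no overlap and a response of -0.86 ± 0.72 (limma adjusted p = 0.41). The SE pools all 4 groups; without Top2b-deleted PBS replicate 3 it was 0.17, and the response passed (limma adjusted p = 0.00701). Spink4 in the Top2b-deleted line had 3.97, 3.93 and 3.65 with PBS and 3.70, 2.86 and 2.75 with doxorubicin at 16 h, and its responses differed between the lines by -0.93 ± 0.32 (limma adjusted p = 0.0865). Bend6 in wild type at 72 h had -4.11, -3.23 and -3.18 with PBS and -2.67, -2.41 and -2.52 with doxorubicin, a response of 0.97 ± 0.31 (limma adjusted p = 0.0985). Without replicate 1 of Top2b-deleted doxorubicin the difference for Spink4 was -1.23 and passed (limma adjusted p = 0.0083), and so did that for Wdfy1, at -0.77 (limma adjusted p = 0.0324). At 72 h, with slide as a block, the wild-type responses of Trnp1, Bend6 and Meig1 passed (limma adjusted p = 0.0299, 0.0384 and 0.0383).

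Genes known to act with the members were counted from lists, beside the shares of all genes. Doxorubicin in wild type at 16 h called 27.8% of all genes (13.7% higher, 14.1% lower). The line comparison took PBS and doxorubicin arrays together, so a drug response of 1 line alone also enters it. It called 30.8% at 16 h (16.2% higher, 14.6% lower) and 11.4% at 72 h (6.41% higher, 5.02% lower). Of the WAVE complex and Rac genes listed with Cyfip2, 11 of 13 were kept at 16 h, and 2 rose and 0 fell with doxorubicin in wild type. These were Abi1 at 1.17 ± 0.17 and Abi2 at 0.67 ± 0.16 (limma adjusted p = 0.000985 and 0.00971), both adaptors of the complex. Between the lines 2 were higher and 0 lower in the Top2b-deleted line, Nckap1 at 0.47 ± 0.07 and Cyfip1, the close relative of Cyfip2, at 0.25 ± 0.07 (limma adjusted p = 0.00112 and 0.0236). Of the securin, separase and cohesin genes listed with Pttg1, 13 of 18 were kept, and 3 were higher and 0 lower in the Top2b-deleted line at 16 h, led by Pds5b, a cohesin regulator, at 0.94 ± 0.13 (limma adjusted p = 0.000583). The median line difference of the 13 was -0.04 within PBS and 0.18 within doxorubicin, beside -0.01 over all genes in both. Doxorubicin moved Pds5b in wild type at 16 h by -1.95 ± 0.18 (limma adjusted p = 8.7e-05). At 72 h 0 genes of either list passed between the lines, and Nckap1 stood at 0.23 ± 0.10 and Pds5b at 0.34 ± 0.15 (limma adjusted p = 0.171 and 0.191).

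Of the FYVE and toll-like receptor genes listed with Wdfy1, 11 of 14 were kept, and 3 rose and 4 fell with doxorubicin in wild type at 16 h, led by Hgs at 1.14 ± 0.14 and Traf3 at -1.06 ± 0.14 (limma adjusted p = 0.000362 and 0.000605). Between the lines 4 of the 11 were higher and 2 lower in the Top2b-deleted line at 16 h, and 2 higher and 1 lower at 72 h. At 16 h the median line difference of the 11 was 0.09 within PBS and 0.43 within doxorubicin, beside -0.01 over all genes in both. Traf3, a signalling adaptor of the pathway, was higher by 0.80 ± 0.10 at 16 h (limma adjusted p = 0.000343).

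Of the peptide processing genes listed with Pam, 11 of 18 were kept at 16 h, and 5 were higher and 0 lower in the Top2b-deleted line. Nppa was higher by 2.59 ± 0.27 (limma adjusted p = 9.8e-05). Chgb, a granule protein gene, was well above background on 0 of 6 wild-type and 6 of 6 Top2b-deleted arrays, which bounds it at no less than 4.08-fold higher (limma adjusted p = 0.000177). At 72 h 2 of 12 were higher and 0 lower. Markers of atrial cells, a list of 5 that also holds Nppa, did not move one way between the lines. Nppa was higher by the test at both times, and Sln, the sarcolipin gene, was lower at 16 h, at -1.88 ± 0.52 (limma adjusted p = 0.0203). The median line difference of the 5 was -1.20 at 16 h and -0.12 at 72 h, while their summed level on a linear scale, to which Nppa belongs, was 247 to 742 in wild type and 1218 to 2082 in the Top2b-deleted line at 16 h, and 67.5 to 293 against 438 to 1510 at 72 h. Myl7, the atrial myosin light chain gene, stood at -1.29 ± 0.49 at 16 h (limma adjusted p = 0.0675), and the part of atrial cells in the level of Pam was not tested. Of the F-box and SCF genes listed with Fbxo44, 15 of 16 were kept, and 3 were higher and 0 lower at 16 h, led by Fbxo27 at 1.53 ± 0.11 (limma adjusted p = 1.2e-05), which was also higher at 72 h, by 1.34 ± 0.24 (limma adjusted p = 0.00544). Within PBS 0 of the 15 passed at either time, and the share of all genes called within PBS is not given here. Doxorubicin moved Fbxo27 in wild type at 16 h by -1.93 ± 0.16 (limma adjusted p = 5.6e-05).

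Of the BEN domain and Notch genes listed with Bend6, 18 of 19 were kept at both times, with 2 higher and 2 lower in the Top2b-deleted line at 16 h and 1 higher and 2 lower at 72 h. Notch1, a receptor of the pathway, was lower at 72 h by -3.72 ± 0.60 (limma adjusted p = 0.00329). Of the SWI/SNF genes listed with Trnp1, 14 of 14 were kept, and 5 were higher and 1 lower at 16 h, among them Smarca4, an ATPase of the complex, at 0.41 ± 0.09 (limma adjusted p = 0.00658). At 16 h the median line difference of the 14 was 0.12 within PBS and 0.36 within doxorubicin, and the median over all genes was -0.01 in both. Doxorubicin lowered 4 of the 14 in wild type at 16 h and raised 0, with a median of -0.34 beside -0.03 over all genes, where 14.1% of all genes were lower and 13.7% higher. At 72 h 1 of the 14 was higher and 1 lower between the lines. Of the 11 genes in the Kazal list of Spink4 only 3 were kept at 16 h, Sparc, Fstl1 and Agrn, and none is a Spink gene. Sparc and Fstl1 were higher in the Top2b-deleted line, by 1.37 ± 0.16 and 1.10 ± 0.23 (limma adjusted p = 0.000247 and 0.00592), and 0 were lower. Of the 11 flagellum genes listed with Meig1, 3 were kept at 16 h, with 2 higher and 0 lower. At 72 h 0 of the 3 kept genes of the Kazal list passed, and of 5 flagellum genes 0 were higher and 1 lower. Some of the relatives named here had a line difference larger in size than the member they were listed with. These were Notch1 at 72 h (-3.72, beside 3.58 for Bend6), Nppa at 72 h (3.18, beside 2.26 for Pam) and Nppb at 16 h (3.885, beside 2.96 for Pam). Doxorubicin moved Nppb in wild type at 16 h by -4.19 ± 0.76 (limma adjusted p = 0.00288), and this response enters its line difference. The line difference of Pam at 16 h was 3.005 within PBS and 2.916 within doxorubicin.

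The arrays lay on 2 slides at each time. At 16 h slide 1 held all 6 wild-type and 2 Top2b-deleted arrays. At 72 h slide 1 held 4 and 4 arrays of the lines and slide 2 held 2 and 2. Genes that separate the lines over all arrays of a time also do so within a slide. Counts of separated members within a slide were thus fixed in advance and are not given. With slide as a block Fbxo44 differed by -6.08 at 16 h, and the other 8 genes by 1.44 to 5.50 in size. The slide effect at 16 h comes from the Top2b-deleted PBS group alone, whose only array on slide 2 is replicate 3. The value of Fbxo44 thus rests on the array that departed from its line. Each array's 75th percentile signal was between 146 and 282, 42.9% to 52.6% of spots were well above background, and 0 spots were saturated. Markers of other cells also differed between the lines at 16 h, with 7 of 8 endothelial markers lower and 5 of 7 fibroblast markers higher in the Top2b-deleted line, beside 14.6% lower and 16.2% higher of all genes. Of 7 smooth muscle and pericyte markers 3 were higher and 4 lower, and of the 9 cardiomyocyte markers 4 were lower and 0 higher at 16 h and 1 higher and 0 lower at 72 h. Their part in the levels of the 9 genes was not tested. The median line difference of the endothelial list was -0.81 at 16 h and -0.77 at 72 h, and that of the fibroblast list 1.46 and 0.28. The endothelial median was -0.78 within PBS and -0.73 within doxorubicin at 16 h, and -0.08 and -1.58 at 72 h. The median endothelial response to doxorubicin in wild type at 72 h was 1.54. Of 4 neutrophil markers tested, 3 were lower in the Top2b-deleted line at 16 h and 2 at 72 h. Within PBS 0 of these 4 passed at either time, and the share of all genes called within PBS is not given here. Their medians were -0.43 and -0.37 within PBS, and -2.11 and -3.04 within doxorubicin.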

How the data were processed

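Intensities were read from the scanner files of 24 arrays (100 ng RNA each), made with Agilent Feature Extraction 10.7.3.1 and deposited as background-subtracted, detrended signals, per the file headers. The deposited value table holds ratios, each array's processed signal over its own median, as found by setting it beside the scanner files; its maker's steps are not given in the sources used here. Control spots and outlier spots were left out, and log2 signals were scaled to each array's 75th percentile. A probe was kept at a time if any 1 group had it well above background on each of its 3 arrays, and the brightest kept probe stood for a gene. At each time limma 3.58.1 (R 4.3.3) fitted the 4 groups (8 residual df), with Benjamini-Hochberg adjustment over all genes and a threshold of 0.05. Tables were made in Python 3.11.15 with pandas 2.3.3. The number of arrays limits the precision.

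The members and lists were chosen with earlier results of these data known, and 1 further gene of the rule and a few others are not reported here. Named besides them were the label checks and, per member, the 2 most like genes, up to 2 separating neighbours, and up to 2 genes per list and comparison by adjusted p. Sln, Myl7, Myh6, Tnnt2, Fam46b, BC053393 and the genes around Fbxo44 were named after their values were seen. Positions are those of the files (mm9); exons and UTRs were not analysed here. On simulated wild-type doxorubicin data with 200 changed genes, the fit recovered 60% at 16 h and 38% at 72 h of those changed by 1 on the log2 scale, and 91% and 75% of those changed by 2. Alternatives covered scaling, background, filter, probe choice, slide, replicate, genotype label and left-out arrays.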

Additional observations from a re-analysis of the deposited data

Results flagged for a closer look

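The response of Cyfip2 to doxorubicin at 16 h differed between the lines by 1.12 (Top2b-deleted minus wild type, log2, limma adjusted p = 0.0462). This test passed for 1 of the 9 genes, near the share of 11.4% over all genes. The difference for Cyfip2 was 0.81 with slide as a block, where it did not pass (limma adjusted p = 0.296), and 1.58 without the 4 arrays of conflicting genotype labels (limma adjusted p = 0.0361).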

How the results depend on the processing

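Of 440 line differences of the 9 genes under the alternatives run, 412 stayed within the replicate spread, 22 moved with their sign kept, and 6 changed sign. Those 6 were Wdfy1 at 72 h without each Top2b-deleted array in turn (-0.12, -0.05, -0.16, -0.22, -0.25 and -0.25; range over left-out arrays -0.25 to 2.74), because an upstream probe then became its brightest. The mean of the kept probes gave Wdfy1 1.82 at 16 h and 1.45 at 72 h. Normexp background gave Bend6 2.55 and 2.07, Fbxo44 -2.67 and -3.12, Spink4 4.33 and 3.63, and Wdfy1 3.37 and 2.35 at 16 h and 72 h, and Meig1 -2.31 at 16 h. With genotype from the characteristic, 0 of 9 genes separated the lines at 16 h, which follows from their separation by the title. In that setting 0 passed in wild type and 0 in the difference of responses, and 0, 1 and 0 genes in all passed for wild type, Top2b-deleted and the difference.

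The counts of members called at 16 h were 1 for wild type, 0 for Top2b-deleted and 1 for the difference. For wild type this became 0 without the filter, and 2 with slide as a block, with Y-linked transcripts as a covariate and without the 4 arrays of conflicting labels; the 2 without those arrays were Fbxo44 and Meig1, and Trnp1 was lost. From only the 2 groups the 1 call was Fbxo44, not Trnp1. For Top2b-deleted it became 1 with the slide block, Fbxo44, which rests on replicate 3 of Top2b-deleted PBS. For the difference it became 0 with quantile normalization and without the filter, and 2 with the covariate and without the 4 arrays. At 72 h the wild-type count, 0, became 3 with the slide block, and 1 with the filter on all 12 arrays and without the 2 arrays with Y-linked transcripts.

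Over all genes at 16 h, the 5203 wild-type calls became 2008 from only the 2 groups compared. The 0 Top2b-deleted calls became 2 with the slide block, 2 from only the 2 groups, 1 with the covariate and 5 without the 4 arrays. The 2143 calls on the difference became 972 without the filter, 373 with the slide block and 1110 without the 4 arrays. At 72 h the 530 wild-type calls became 961 with median scaling, 22 without the filter, 2643 with the slide block, 18 from only the 2 groups and 22 with the covariate, and the 0 calls on the difference became 1 with quantile normalization and 2 without the 2 arrays. The causes were not tested.

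Leaving out 1 array at a time gave, at 16 h, 0 to 2 wild-type and 0 to 3 difference calls among the members, and 3633 to 6722 wild-type, 0 to 7 Top2b-deleted and 999 to 4793 difference calls over all genes. At 72 h it gave 0 to 1 wild-type calls among the members, and 1 to 1516 (without wild-type PBS replicate 3 and 4), 0 to 2 and 0 to 7 over all genes. Same-numbered arrays correlated in their deviations at -0.12 to 0.29 at 16 h and 0.0021 to 0.73 at 72 h, with 6 and 16 of 18 correlations over 0.1. The medians were 0.06 and 0.35, beside -0.03 and -0.24 for arrays of different numbers. At 72 h each number held 1 array of each group, on 1 slide. Not every same-numbered correlation was over 0.1, and the numbers were not treated as pairs in the main fit. With a replicate block, the difference at 16 h had 0 members called, and wild type at 72 h had 3 members (Trnp1, Bend6 and Meig1) and 3289 genes. The alternatives with the covariate and without labelled arrays were chosen after seeing the data. Probes near background limit the low side of Bend6, Fbxo44 and the second probes of Wdfy1 and Pttg1.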
